A study of Sus scrofa with 48 samples.

Results

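The liver transcripts of 10 pig genes that code for apolipoproteins or for proteins that remodel high-density lipoproteins (HDL) were examined: APOA1, APOA2, APOA4, APOB, APOC3, APOE, APOM, LCAT, LIPC and SCARB1. They were taken from the array by name, as every probe whose gene name in the scanner output was that of a listed gene or whose accession mapped to it. This gave 10 genes of the 12199 named on the array, and 26 of its 60305 probes. Each of the 26 exceeded background clearly on every one of the 48 arrays, so that no value of these genes was lost to a filter on dim probes.

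Liver RNA came from 48 castrated male Large White pigs, 24 from a low RFI line (RFIneg) and 24 from a high RFI line (RFIpl). Residual feed intake (RFI) is the difference between what a pig eats and what its growth and fatness predict, and the lines had been selected apart for it over 8 generations, so that low RFI pigs are the efficient ones. From 74 days of age, 12 pigs of each line were fed a high-fat high-fiber diet (HF) and 12 a low-fat low-fiber diet (LF), and all were killed 2 h after their last meal. Fat and fiber changed together in these diets and cannot be told apart. Each RNA was hybridized with 1 dye to an array of its own. The arrays lay on 6 slides, each with 2 pigs of every line and diet group, and were scanned on 2 days, with 6 pigs per group on each day.

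Lipoproteins carry fats and cholesterol through the blood in particles wrapped by apolipoproteins. APOB is the structural protein of very low-density lipoproteins (VLDL), which the liver secretes with triglycerides, while APOA1 is that of HDL, which takes up cholesterol from tissues and returns it to the liver. APOA2 is another HDL protein. LCAT esterifies the cholesterol of HDL, the hepatic lipase LIPC hydrolyses lipids of HDL and of VLDL remnants, and SCARB1 is the receptor through which hepatocytes take up cholesteryl esters of HDL. APOC3 slows the clearance of triglyceride-rich particles, APOE is a ligand of their receptors, APOM carries sphingosine-1-phosphate on HDL, and APOA4 is secreted with triglyceride-rich particles and HDL.

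The sequences of the probes show which parts of the results are independent measurements. The oligonucleotides below are the 3 overlapping APOA1 probes, both LCAT probes and the LIPC probe, shown for the line effect (LCAT O4209 was not called), the APOM probe with the larger diet effect, and an APOA4 probe, shown for its variation between pigs. They are written 5′ to 3′ as the scanner output gives them, each is 60 bases long, and capitals in the APOA1 probes mark a stretch of 25 bases that these 3 probes have in common. Each can be read without a stop codon in at least 1 frame.
APOA1 A_72_P754826: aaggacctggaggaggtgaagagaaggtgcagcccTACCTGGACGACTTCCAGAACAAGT
APOA1 O11903: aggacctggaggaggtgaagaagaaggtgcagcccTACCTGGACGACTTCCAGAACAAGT
APOA1 A_72_P035886: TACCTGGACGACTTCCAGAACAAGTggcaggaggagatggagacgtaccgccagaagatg
LCAT A_72_P497234: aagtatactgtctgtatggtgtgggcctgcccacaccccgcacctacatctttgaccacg
LCAT O4209: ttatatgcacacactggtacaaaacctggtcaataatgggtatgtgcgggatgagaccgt
LIPC A_72_P392258: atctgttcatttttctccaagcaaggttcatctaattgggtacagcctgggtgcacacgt
APOM A_72_P499018: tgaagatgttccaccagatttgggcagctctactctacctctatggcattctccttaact
APOA4 A_72_P441539: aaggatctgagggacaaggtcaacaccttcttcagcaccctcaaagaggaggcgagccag

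The first 2 APOA1 probes shared a run of 39 bases, and after line and diet were removed they varied together over the 48 pigs with a Pearson r of 0.96. The fourth APOA1 probe, A_72_P192717, shared no run of more than 6 bases with the others, and its r with them was 0.48 to 0.51. APOA1 was therefore measured at no more than 2 separate places of its transcript. Among the other genes, 2 of the 3 APOA4 probes and 2 of the 5 SCARB1 probes had the same sequence. The paired APOA4 spots differed by an SD of 0.07 on the log2 scale and the paired SCARB1 spots by 0.05, which covers the difference between spots of 1 array only, not that between labellings or arrays. The probes of LCAT (r of 0.91), APOC3 (0.94), APOA2 (0.98), APOB (0.73 to 0.78) and APOM (0.71) varied together, and the r was 0.47 for APOE. The SCARB1 probes of different sequence had r of 0.88 for A_72_P440481 with A_72_P642167 and of 0.15 to 0.48 for the other pairs.

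Levels are given as log2 intensity minus the median of the array, so that 0 is the level of the median tested probe, and a difference of 1 is a factor of 2. Levels of different probes depend on the probe and are not set against each other. Differences were tested for each of 45236 tested probes with limma (line, diet and their interaction, 2-sided), and a probe is called differentially expressed (DEP) at P under 0.01 with a fold-change (FC) over 1.1. P-BH is the P-value adjusted by Benjamini-Hochberg over all tested probes.

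**Figure D1:**
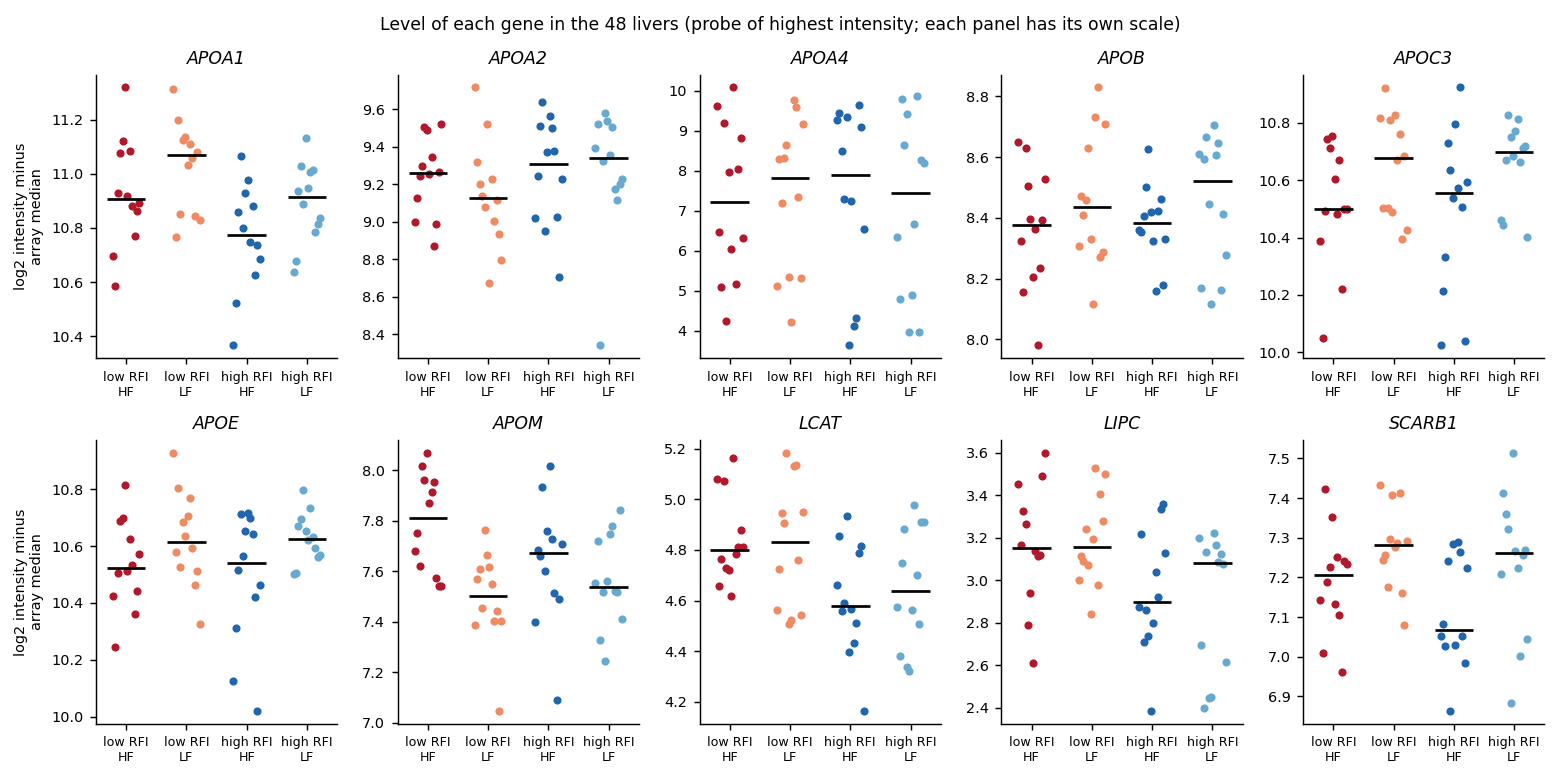
Level of each gene in every liver, by line and diet (log2 intensity minus the array median on the vertical axis, probe of highest intensity, 12 pigs per group, bars at the group median; the scales differ between panels). The groups overlap for all 10 genes, and APOA4 spans 3.64 to 10.09 over the 48 pigs.

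Pigs from the low RFI line had more APOA1, LCAT and LIPC transcript in liver than pigs from the high RFI line. APOA1 was over-expressed by 1.11 to 1.17 times over its 4 probes, LCAT by 1.15 times for 1 of its 2 probes, and LIPC by 1.20 times for its only probe. The other 7 genes, among them APOB and the HDL receptor SCARB1, had no DEP between lines. Altogether, 6 of the 26 probes were DEP for line, all over-expressed in the low RFI line, against 6.91% of all tested probes (3.42% in that direction). Counted by gene, 3 of the 10 genes had a DEP, against 9.28% of the named genes. The study had already singled out APOA1, LCAT and LIPC in these same livers, so that their calls are not independent evidence for the group.

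In the low RFI line, the APOA1 probe A_72_P754826 had levels from 8.71 to 9.66, with a median of 9.24. In the high RFI line its levels ran from 8.62 to 9.39, with a median of 9.0. The lines overlapped, but 21 of the 24 low RFI pigs exceeded the high RFI median. This is a log2 FC of 0.23, with a standard error of 0.06 and P-BH = 0.017. The neighbouring probe O11903 differed by 0.21 ± 0.06 (log2 FC ± standard error, P-BH = 0.0341), and these were the only probes of the 10 genes past a P-BH of 5%, which 3.93% of all tested probes reached. The other APOA1 probes were DEP with a P-BH of 0.0971 for A_72_P035886 (log2 FC of 0.19) and 0.121 for A_72_P192717 (log2 FC of 0.15). On each of the 6 slides, all 4 APOA1 probes were higher in the low RFI pigs. With centring on the 75th percentile the last of these probes was no longer called (log2 FC of 0.15, limma P = 0.0119). With quantile normalization it was not called because its FC fell under 1.1 (log2 FC of 0.13, standard error 0.04, limma P = 0.000482).

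LCAT is the enzyme that fills HDL with cholesteryl esters. Its probe A_72_P497234 had levels from 4.51 to 5.18 in the low RFI line (median 4.80). Levels in the high RFI line lay between 4.16 and 4.98 (median 4.58). The ranges had most of their length in common, and 20 of 24 low RFI pigs exceeded the high RFI median. LCAT thus differed by a log2 FC of 0.20 (standard error 0.07, P = 0.00303, P-BH = 0.0659). The other LCAT probe, O4209, had a log2 FC of 0.18 with a larger standard error of 0.09 and was not a DEP (P = 0.0447). When LCAT was represented by the mean of its probes, it was no longer called (log2 FC of 0.19, P = 0.0129).

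LIPC, which acts on HDL after LCAT, was measured by 1 probe only. Its levels ran from 2.61 to 3.60 in the low RFI line (median 3.15) and from 2.39 to 3.36 in the high RFI line (median 2.98). Both ends of the range lay lower in the high RFI line, and 19 of 24 low RFI pigs exceeded its median. The log2 FC of 0.26 (standard error 0.08, P = 0.00237, P-BH = 0.0567) was the largest line effect of the 10 genes, and 6 of 6 slides had the same direction. The plot of the levels in every liver shows overlapping groups, with shifts close in size to the SD between pigs after line and diet were removed. For the plotted probes the log2 FC was 0.15 against an SD of 0.17 for APOA1, 0.20 against 0.22 for LCAT and 0.26 against 0.27 for LIPC.

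Among the genes with no DEP for line, APOB, the protein of VLDL, had medians of 8.39 and 8.42 in the low and high RFI lines, and the 95% confidence interval of its log2 FC ran from -0.12 to 0.11. For APOC3 the interval was -0.12 to 0.13, and for APOE it was -0.08 to 0.12. Intervals in this paragraph are those of the probe of highest intensity. For these 3 genes, differences in signal of more than about 1.1 times between lines lay outside them. The intervals of the other probes reached as far as -0.15 for APOC3, 0.15 for APOE and 0.14 for APOB. The intervals were -0.24 to 0.09 for APOA2, -0.08 to 0.16 for APOM and -0.03 to 0.15 for SCARB1, the last with all 5 probes between 0.03 and 0.08 in log2 FC. For APOA4 the interval was -1.10 to 1.27, so that even a difference of a factor of 2 between lines was not detectable for this gene. With 1 probe of highest intensity per gene, 8 of the 10 genes were higher in the low RFI line. No share of all named genes was set beside this count. The higher genes with no DEP had log2 FC of 0.00 to 0.09. The median log2 FC of the 10 genes was 0.05, against 0.01 over all tested probes. APOC3, counted as higher, was at 0.00 and changed sign with quantile normalization, and APOB, counted as lower, did so too. At an unadjusted P under 0.05 there were 7 of 26 probes, against 14.7% of all tested probes.

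When the pigs scanned on each day were analysed alone, with 24 pigs each, 2 of the 26 probes were DEP for line on the first day (APOA1 A_72_P754826 and LIPC), against 3.84% of all tested probes. On the second day 0 were DEP by limma, against 3.62% of all tested probes. The smallest unadjusted P on that day were those of APOA1 O11903 and A_72_P754826 (limma P = 0.0208 and 0.0209). All probes of APOA1, LCAT and LIPC were higher in the low RFI line on both days. The log2 FC of LIPC was 0.35 on the first day and 0.17 on the second, that of LCAT A_72_P497234 was 0.22 and 0.19, and that of APOA1 A_72_P754826 was 0.24 and 0.22.

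The line effect was also read within each diet. With the LF diet, 2 of the 26 probes were DEP between lines, both of APOA1, against 3.84% of all tested probes. These were A_72_P754826 (log2 FC of 0.25, limma P-BH = 0.182) and O11903 (0.24, limma P-BH = 0.237). LIPC had a larger log2 FC of 0.30 with this diet but was not a DEP (limma P = 0.0114). With the HF diet, 0 of 26 probes were DEP by limma, against 3.41% of all tested probes, and 5 had an unadjusted P under 0.05, against 9.13%, with log2 FC of 0.16 to 0.24. These 5 were the 4 APOA1 probes and LCAT A_72_P497234. The effect of line did not pass the test of a difference between diets for any of the 26 probes: 0 had an interaction P under 0.01, against 0.376% of all tested probes, and 0 under 0.05, against 2.37%.

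**Figure D2:**
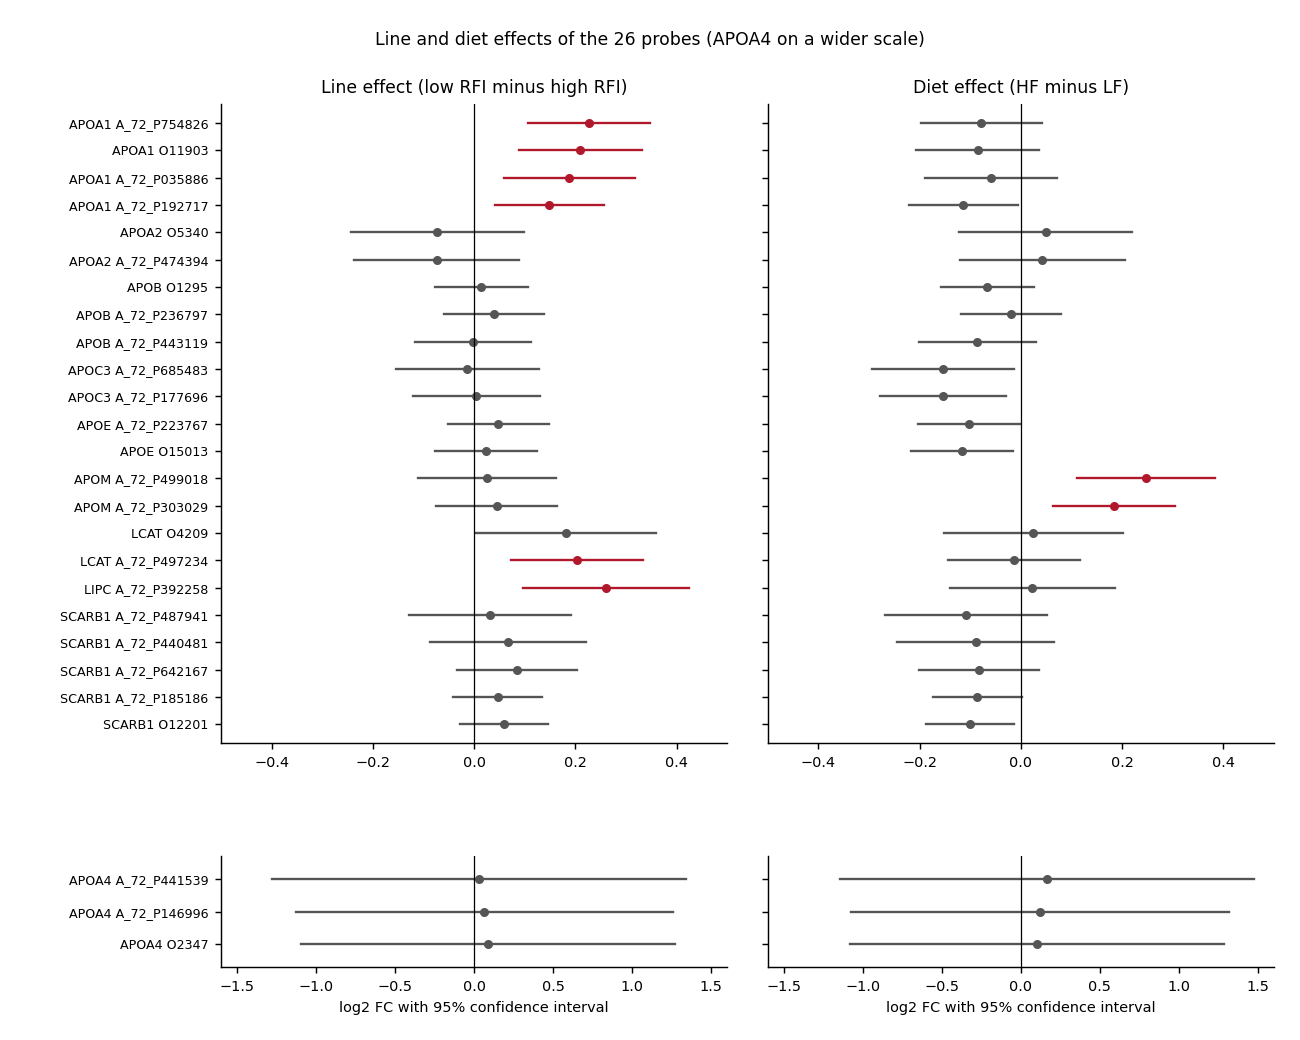
Log2 FC of the 26 probes for line (low RFI minus high RFI, left) and diet (HF minus LF, right), each a point with its 95% confidence interval; DEP are in red and APOA4 has a wider horizontal scale. All 4 APOA1 probes, 1 LCAT probe and LIPC are red on the left, and both APOM probes on the right.

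For diet, the called probes were those of another gene, APOM. Pigs fed the HF diet had 1.19 times the APOM level of pigs fed the LF diet for probe A_72_P499018 and 1.14 times for A_72_P303029. These were the only DEP for diet, 2 of 26 probes, against 4.61% of all tested probes (2.07% in that direction), and neither reached a P-BH of 5%, which 0.455% of all tested probes did. By gene, 1 of 10 had a DEP for diet, against 6% of the named genes. The counts were close to these shares and are no result about the 10 genes as a group.

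For APOM A_72_P499018, levels with the HF diet ran from 3.87 to 4.66 (median 4.38). With the LF diet they ran from 3.47 to 4.53 (median 4.10). The diets overlapped, with 20 of 24 pigs on the HF diet above the median of the LF diet. The log2 FC was 0.25 (standard error 0.07, P = 0.000697, P-BH = 0.0778), and it was positive on 6 of 6 slides. The other probe, A_72_P303029, shared at most 5 bases in a row with the first, and it also placed 20 of 24 pigs on the HF diet above the LF median (log2 FC of 0.18, standard error 0.06, P-BH = 0.136).

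Within the low RFI line, APOM A_72_P499018 had a median of 4.42 with the HF diet and 4.10 with the LF diet, a log2 FC of 0.38 (standard error 0.10, P = 0.000256, P-BH = 0.218). Within the high RFI line the medians were 4.20 and 4.16, with a log2 FC of 0.11 (P = 0.245). The second probe gave 0.30 in the low RFI line (P = 0.000898) and 0.07 in the high RFI line (P = 0.413). Both APOM probes were thus DEP within the low RFI line, where 2.68% of all tested probes were, and 0 of the 26 probes were DEP within the high RFI line by limma, against 1.58% of all tested probes, with 1 SCARB1 probe at an unadjusted P under 0.05 (A_72_P487941, log2 FC of -0.26), against 6.62%. The difference between the lines in the effect of diet did not pass the test for either probe (interaction P = 0.0554 and 0.0604). On the first scan day alone the same 2 probes were DEP for diet, with log2 FC of 0.30 and 0.23, against 1.78% of all tested probes. On the second day their log2 FC were 0.19 and 0.14, and 0 of the 26 probes were DEP by limma, against 2.06% of all tested probes. The smallest unadjusted P for diet on that day was 0.0568 by limma, for APOB A_72_P443119.

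APOC3, APOE, SCARB1 and the brightest APOA1 probe had lower levels with the HF diet at an unadjusted P under 0.05, without being DEP. Their log2 FC for HF against LF were -0.15 for both APOC3 probes (P = 0.0164 and 0.0329), -0.12 and -0.10 for APOE (P = 0.0252 and 0.045), -0.10 for SCARB1 O12201 (P = 0.0239) and -0.11 for APOA1 A_72_P192717 (P = 0.0387). With the 2 APOM probes, 8 of the 26 probes had an unadjusted P under 0.05 for diet, against 14.4% of all tested probes. The level of APOC3 A_72_P177696 ran from 10.02 to 10.92 with the HF diet (median 10.52) and from 10.40 to 10.92 with the LF diet (median 10.68). The ranges ended at the same height, and the lowest pigs were all on the HF diet. With slide as a block this probe was called (log2 FC of -0.15, P = 0.00689). For APOA2, APOA4, APOB, LCAT and LIPC the log2 FC for diet lay between -0.09 and 0.16 over their probes, all with P above 0.05.

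The brightness of an array moved with several of these values. Median intensities of the arrays lay between 53 and 126 in scanner units. Its log2 value did not differ between lines (difference of -0.01, permutation test, P = 0.897), and was 0.13 higher on the HF diet than on the LF diet (permutation test with 100000 resamples, 2-sided, P = 0.0799). Each level is an intensity minus a median of its array, so that level and array brightness share a term. A probe whose intensity rises less than that median gets a negative r by construction, which the permutation tests do not take into account. After line and diet were removed, the level of APOA1 correlated with the log2 median of its array at a Pearson r of -0.84 over 48 arrays (Spearman rho -0.79, both permutation P = 1e-05, the smallest that 100000 resamples can give). The r was -0.80 for APOE and -0.77 for APOC3 (permutation P = 1e-05 each), and it was 0.40 for LIPC (permutation P = 0.00414). Without the 2 arrays farthest in level these values were -0.80, -0.79, -0.71 and 0.42. Over the 10 genes tested in this way, the P-BH was 3.33e-05 for the first 3 genes and 0.0103 for LIPC, and it did not reach 5% for the other 6 genes, with r from -0.30 to 0.16, although rho did for APOA2 (-0.41) and APOM (-0.37). A negative r was typical of very bright probes. The median r with array brightness was -0.75 over the 154 tested probes with a mean level above 10. Over all tested probes it was 0.01, a value that centring on the array median keeps near 0. The median diet effect of the 154 bright probes was -0.11, against -0.01 over all.

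**Figure D3:**
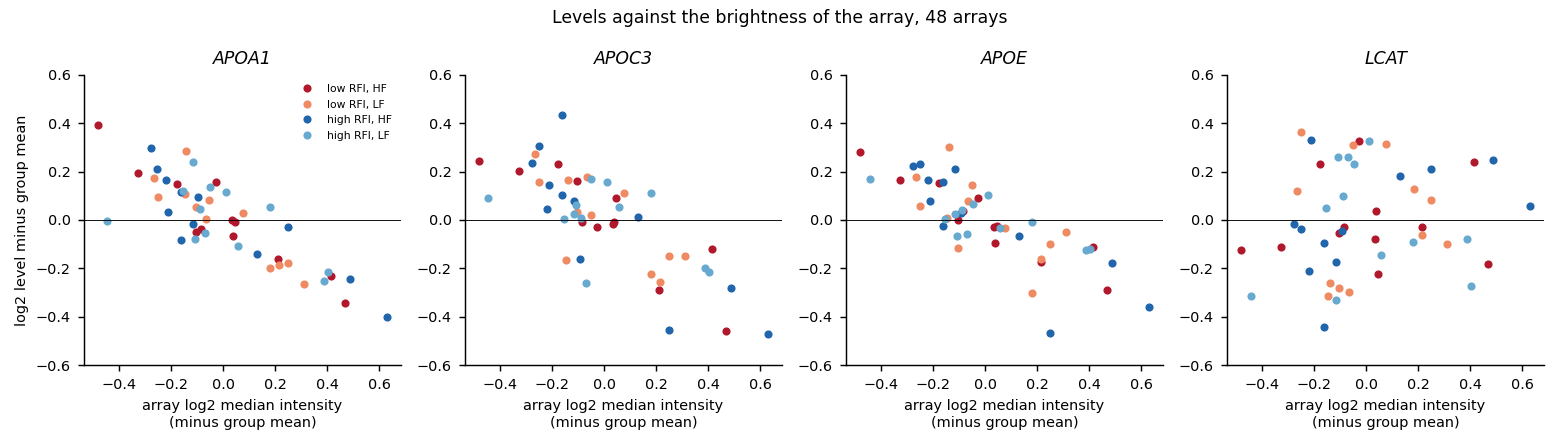
Level of APOA1, APOC3, APOE and LCAT (probe of highest intensity, group mean subtracted) against the log2 median intensity of the array (group mean subtracted), 48 arrays coloured by line and diet. The levels of APOA1, APOC3 and APOE fall as arrays get brighter (r of -0.84, -0.77 and -0.80), while LCAT has no such slope (r of 0.14).

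With array brightness as a covariate in the model, a fit chosen after the data were seen, the same number of probes was called, 6 for line and 2 for diet. The line effect of the brightest APOA1 probe was then 0.14 with a standard error of 0.03 (P = 5.88e-05), and that of LIPC 0.27 (P = 0.00097). The diet effect of APOM was 0.21 (P = 0.000892) for the brighter of its probes. The diet effects of the 3 bright genes shrank instead, to -0.04 for APOA1 (P = 0.274), -0.07 for APOC3 (P = 0.105) and -0.05 for APOE (P = 0.166), while that of SCARB1 was -0.09 (P = 0.0466). With quantile normalization the diet effect of APOA1 was 0.00074, and those of APOC3 and APOE were -0.045 and -0.016.

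Between pigs of the same line and diet, the 10 genes varied to very different extents. After line and diet were removed, the SD over pigs of the 3 APOA4 probes was 2.03 to 2.24 on the log2 scale, above the 99.9th percentile of all tested probes, whose median SD was 0.27. The level of APOA4 O2347 ran from 3.64 to 10.09 over the 48 pigs, a range of 87.6 times, and every line and diet group held pigs near both ends. SCARB1 O12201 had an SD of 0.14 and lay at the 5.34th percentile, APOE O15013 had an SD of 0.16 (12.5th percentile) and APOB A_72_P443119 one of 0.19 (21.2nd percentile). LCAT, LIPC and APOA2 were in between, with SD of 0.22, 0.27 and 0.27.

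The pigs with high APOA4 also had high LCAT and APOB. Correlations between the 10 genes were computed over 48 pigs after line and diet were removed, for all 45 pairs, with permutation tests of 100000 resamples and P-BH over the pairs. APOA4 and LCAT had a Pearson r of 0.71 (Spearman rho 0.72, both permutation P = 1e-05, P-BH = 0.000112). For APOA4 and APOB the r was 0.55 (rho 0.54, permutation P-BH of r 0.00045), and for APOB and LCAT it was 0.56 (rho 0.55, permutation P-BH of r 0.00045). APOA4 and SCARB1 ran in opposite directions, with an r of -0.43 (rho -0.40, permutation P-BH of r 0.0153). Without the 2 pigs farthest from the median of the first gene, the r of these 4 pairs were 0.70, 0.56, 0.55 and -0.37, and with array brightness removed they were 0.70, 0.56, 0.57 and -0.42.

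**Figure D4:**
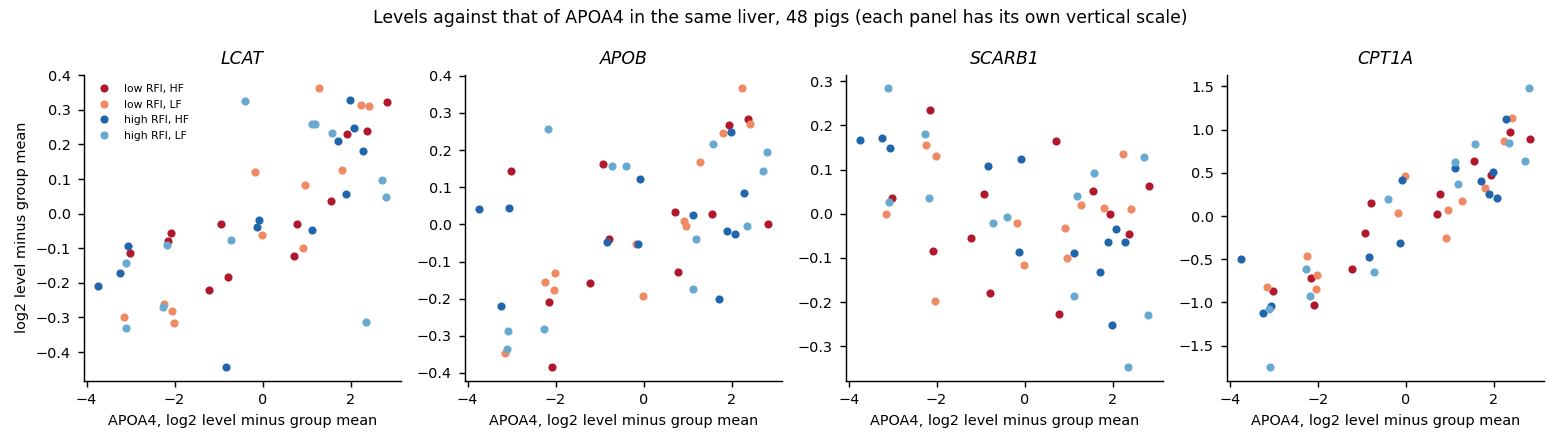
Level of LCAT, APOB, SCARB1 and CPT1A against that of APOA4 in the same liver (log2 level minus the mean of the line and diet group on both axes, 48 pigs; vertical scales differ). LCAT, APOB and CPT1A rise with APOA4 (r of 0.71, 0.55 and 0.91), and SCARB1 falls (r of -0.43).

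Within each line, the r of APOA4 with LCAT was 0.84 in low RFI pigs and 0.60 in high RFI pigs, and on each scan day it was 0.68 and 0.74. The r of APOA4 with APOB was 0.70 and 0.40 in the low and high RFI lines, and 0.59 and 0.52 on the scan days. That of APOB with LCAT was 0.72 and 0.39 in the lines, and 0.70 and 0.49 on the scan days. The negative r of APOA4 with SCARB1 was -0.69 in high RFI pigs but -0.03 in low RFI pigs, and -0.59 and -0.25 on the scan days. The difference between lines in these correlations was not tested.

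APOC3, APOE and APOA1 also varied together. The r was 0.84 for APOC3 and APOE (rho 0.80), 0.79 for APOA1 and APOE (rho 0.83) and 0.73 for APOA1 and APOC3 (rho 0.71), all with permutation P = 1e-05 and P-BH = 0.000112. Without the 2 pigs farthest from the median of the first gene these r were 0.80, 0.74 and 0.69, and on the scan days they were 0.92 and 0.80, 0.91 and 0.63, and 0.86 and 0.57. These are the 3 genes whose level fell with array brightness. With brightness removed, r was 0.59 for APOC3 and APOE (permutation P-BH = 0.000338), 0.37 for APOA1 and APOE (permutation P-BH = 0.0545) and 0.25 for APOA1 and APOC3 (permutation P-BH = 0.198). APOA2 and APOE had an r of 0.54 (rho 0.58, permutation P-BH of r 0.00045), which was 0.52 with brightness removed, 0.58 without the 2 farthest pigs, and 0.40 and 0.71 on the scan days. APOA2 and APOA1 had an r of 0.40 (rho 0.48, permutation P-BH of r 0.0224), whereas APOA2 with APOC3 did not pass (r of 0.28). APOM passed with each of these 4 genes, with r of 0.39 for APOA1, 0.37 for APOA2, 0.36 for APOC3 and 0.41 for APOE (rho of 0.40, 0.37, 0.46 and 0.43, permutation P-BH of r 0.028, 0.0341, 0.0357 and 0.0172). Without the 2 farthest pigs these r were 0.31, 0.31, 0.33 and 0.38, and none of the 4 passed with brightness removed (r of 0.29, 0.31, 0.24 and 0.33). On the scan days they were 0.43 and 0.42, 0.41 and 0.32, 0.37 and 0.39, and 0.36 and 0.45. In all, 16 of the 45 pairs passed a P-BH of 5%, and 7 did with brightness removed: APOA4 with LCAT, APOB and SCARB1, APOB with LCAT, APOC3 and APOA2 with APOE, and APOA1 with SCARB1.

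**Figure D5:**
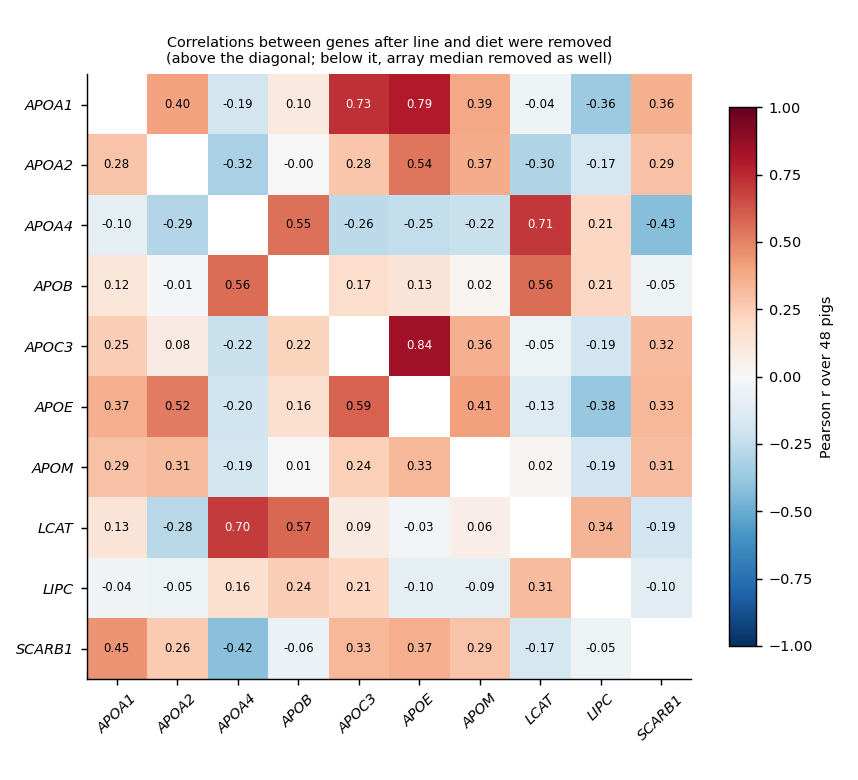
Pearson r between the 10 genes over 48 pigs with line and diet removed (above the diagonal) and with array brightness removed as well (below it). APOA1, APOC3 and APOE are joined by r of 0.73 to 0.84 above the diagonal and 0.25 to 0.59 below it, while the r of APOA4 with LCAT is 0.71 and 0.70.

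APOA4, APOC3 and APOA1 lie next to each other on chromosome 9 of the assembly Sscrofa11.1, in that order after APOA5. Of these neighbours, APOA1 and APOC3 varied together with the r given above, whereas the r of APOA4 was -0.26 with APOC3 and -0.19 with APOA1, neither past a P-BH of 5%. APOE lies on chromosome 6, next to APOC4 and APOC2.

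The genes most like each called gene across pigs were sought among 10591 other named genes, by the r of levels after line and diet were removed over 48 arrays. Those nearest to LCAT were PC, which codes for pyruvate carboxylase (r of 0.80), SPRYD3 (0.79) and SMCR7 (0.78). For LIPC they were TCEA1 (0.75), HSCB (0.75) and ZRANB1 (0.74). For APOM they were ITIH1 (0.63), ATP5G2 (0.61) and AMBP (0.59), of which ITIH1 and AMBP code for plasma proteins made in hepatocytes. For APOA1 they were MUC13 (0.84), ITGB3 (0.82) and CASP10 (0.80), close in size to the r of APOA1 with array brightness. APOA4 was no called gene and was added after its values were seen. Its nearest genes were SEC16A (0.92), CPT1A (0.91), the enzyme that admits fatty acids to mitochondria, and CMPK1 (0.90).

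Other genes of lipoprotein metabolism were read from 6 lists, in which 70 genes had tested probes. For line, 8 of the 70 genes had a DEP, against 9.28% of the named genes: 6 over-expressed and 2 under-expressed in the low RFI line. For diet, 8 had a DEP, against 6%. The median log2 FC for line over each list lay between -0.03 and 0.08, and for diet between -0.08 and 0.04.

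Of 8 other tested genes listed as apolipoproteins, APOO and APOOL among them, 2 had a DEP for line. APOF, which inhibits lipid transfer between lipoproteins, was over-expressed in the low RFI line for 1 of 2 probes (4.05 ± 0.13 against 3.85 ± 0.14, SD, n = 24 each, log2 FC of 0.20, limma P-BH = 0.000986). The other APOF probe, the brighter of the pair, had a log2 FC of 0.02, and the mean of both (0.11, P = 0.0815) was not called. Clusterin, CLU, also carried on HDL, was under-expressed (7.73 ± 0.27 against 8.02 ± 0.22, SD, n = 24 each, limma P-BH = 0.01). APOC2, the activator of lipoprotein lipase, was lower with the HF diet (log2 FC of -0.16, P = 0.00489, and -0.10 with P = 0.0289 with array brightness as a covariate).

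Among 8 enzymes and transfer proteins of plasma lipids, 3 were over-expressed in the low RFI line. The HDL-bound esterase PON3 was so for all 4 probes, with log2 FC of 2.44 to 2.55. Its relative PON1 was so for 1 of 2 probes (log2 FC of 2.53, and -0.16 for the other), and signal of the one gene in probes named for the other was not tested. PLA2G7, a lipoprotein-associated phospholipase, was over-expressed for all 6 probes (log2 FC of 0.31 to 0.40). ANGPTL4, which inhibits lipoprotein lipase, was lower with the HF diet for all 4 probes (log2 FC of -0.64 to -0.58, limma P-BH of 0.0377 to 0.0424).

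For the assembly of HDL and cholesterol efflux, 0 of 9 genes had a DEP for line and 3 had one for diet. The cholesterol exporter ABCA1, which loads lipid onto APOA1, was lower with the HF diet (5.92 ± 0.24 against 6.13 ± 0.24, SD, n = 24 each, log2 FC of -0.21, limma P = 0.00461). SOAT2, which esterifies cholesterol inside hepatocytes, was higher (log2 FC of 0.43, P = 0.00283), as was 1 of 5 probes of BMP1 (log2 FC of 0.20, P = 0.00153), a protease that processes the precursor of APOA1. The other 4 BMP1 probes had log2 FC of 0.01 to 0.08, and the mean of all 5 (0.08, P = 0.0513) was not called. For diet, 0 of these 9 genes reached a P-BH of 5%, ABCA1, SOAT2 and BMP1 included. For the assembly and secretion of VLDL, 2 of 12 genes had a DEP for line, both proteins of the export of large cargo from the endoplasmic reticulum: SAR1B (3 of 5 probes, log2 FC of 0.20 to 0.27) and MIA3 (1 of 2 probes, 0.32). The other MIA3 probe went the opposite way (log2 FC of -0.19, P = 0.0283), and the mean of both was not called (0.07, P = 0.37). None of these 12 had a DEP for diet. Of 11 lipoprotein receptors, 0 had a DEP for line or for diet.

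Among 22 regulators of lipoprotein genes, PPARA, the receptor for fatty acids that governs fat oxidation, was under-expressed in the low RFI line for 1 of 3 probes (log2 FC of -0.37, P = 0.00727) and higher with the HF diet for the same probe (0.40, P = 0.00361). The other PPARA probes had log2 FC of 0.04 and -0.07 for line and of 0.02 and 0.29 for diet, and the mean of all 3 was called for neither line (-0.13, P = 0.161) nor diet (0.24, P = 0.0137). The line effect of the called probe was -0.61 on the first scan day (P = 0.00114) and -0.13 on the second (P = 0.501). The bile acid receptor NR1H4 was higher with the HF diet for all 3 probes (log2 FC of 0.16 to 0.25). SREBF1, a regulator of lipid synthesis, was lower with the HF diet for 1 of 3 probes (log2 FC of -0.65, limma P-BH = 0.00158). Its other probes had log2 FC of -0.13 and -0.12, and the mean of all 3 was -0.30.

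Markers of cell types were read beside these results, since in bulk tissue fewer cells of a type and less RNA per cell cannot be told apart. Of 8 hepatocyte markers, 0 had a DEP for line, and their summed level on the linear scale had a median of 8723 in the low RFI line (6935 to 9921) and of 8618 in the high RFI line (6477 to 9755). With the HF diet, 7 of 21 ALB probes were lower (log2 FC of -0.26 to -0.14), and these are bright probes too. Among 9 Kupffer cell and macrophage markers, 2 of 7 VSIG4 probes and 1 of 2 C1QA probes were under-expressed in the low RFI line, and the median over the list was a log2 FC of -0.18. The summed level was led by CD5L and overlapped between lines. Its median was 616 in the low RFI line (482 to 765) and 606 in the high RFI line (509 to 736). A total of 1 of 4 COL1A2 probes and both RGS5 probes were over-expressed in the low RFI line among 8 stellate cell and fibroblast markers, which ACTA2 led. The KRT7 probe and 1 of 18 EPCAM probes were under-expressed in the low RFI line among 6 cholangiocyte markers, which TFF2 led. The median over that list was a log2 FC of -0.0015 for line. Its summed level had a median of 8.13 in the low RFI line and of 8.10 in the high RFI line. EPCAM was higher with the HF diet for 5 of 18 probes. Over all named genes, 9.28% had a DEP for line and 6% for diet. Endothelial (8 tested, led by CLEC4G), T and NK cell (8, led by CD5), red blood cell (4, led by SLC4A1) and adipocyte markers (5, led by CIDEC) had 0 DEP by limma in either comparison. Only SLC4A1 reached P = 0.00747 for diet, with an FC under 1.1. The part of these cell types in the line effect of APOA1, LCAT and LIPC was not tested.

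APOA1, APOA4 and APOB are also made in the intestine. Of the intestinal markers, FABP2 and SI were not well above background on enough arrays to be tested, and the tested ones, RBP2 and LCT, had mean levels of -3.93 and -2.28, under the median probe. RBP2 was lower in the low RFI line (log2 FC of -0.67, 26 of 48 arrays above background). Pancreas markers were also tested, of which PNLIP was higher in the low RFI line (log2 FC of 0.45, 20 of 48 arrays above background) and AMY2 higher with the HF diet for 4 of 23 probes.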

How the data were processed

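Liver RNA of 48 pigs was measured with 1 array per pig. The authors deposited scanner output with spot intensity, background-subtracted by the software and not normalized between arrays, and a table of log2 values centred on each array's median, made in R 2.10.0 per the labels. The background-subtracted intensity was used here. Control spots were left out, 483 outlier spots set to missing, and repeated spots averaged. A probe entered the tests if the scanner marked it as well above background on 12 arrays or more, which left 45236, and log2 values were centred on the array median of these. Of these, 36913 were above background on all arrays, and 0 spots were saturated. The number of arrays limits the precision.

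Names came from the reference table (assembly Sscrofa11.1) through the accession, which named 6966 probes, otherwise from the scanner output, which named 17004. A total of 36335 probes were unnamed. A gene was represented by its tested probe of highest mean intensity, and called when at least 1 probe was.

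Line, diet and their interaction (sum contrasts) were modelled per probe by limma (3.58.1, R 4.3.3) with moderated variances, in place of the ANOVA of the study's methods, which was run as an alternative. Intervals are 95%. The fit was tested on simulated data. Correlations used residuals of the same model. The slide and the scan day were taken from the scanner output. The highest correlation between 2 arrays was 0.990, and no array was a copy of another.

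Members and gene lists were chosen with earlier results of these data known. Named genes were all members, every gene of the pathway lists with a DEP, the brightest and any called gene of the marker lists, and the 3 genes most correlated with each called member. The alternatives were unmoderated ANOVA, quantile normalization, 75th percentile centring, normexp (offset 50), median signal without background subtraction, no filter or all 48 arrays for dim probes, outlier spots kept, slide or scan day as a block, each scan day alone, the deposited log2 values, no interaction, and the mean of all probes of a gene. Array brightness as a covariate was added after the data were seen. RIN values per pig and diet composition were not used here.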

Additional observations from a re-analysis of the deposited data

How the results depend on the processing

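The number of the 26 probes called for line was 5 or 6, and for diet 2 or 3, under all alternatives that kept the 48 arrays. It fell for line to 2 on the first scan day alone and 0 on the second, and for diet to 0 on the second, with fewer samples in each fit. Of the called genes, APOA1 by its brightest probe was not called with 75th percentile centring (log2 FC of 0.15, limma P = 0.0119). With quantile normalization APOA1 was not called because its FC fell under 1.1 (log2 FC of 0.13, limma P = 0.000482). LCAT was not called with the mean of its probes (0.19). LIPC and APOM kept their calls with all 48 arrays, with log2 FC of 0.26 to 0.28 and 0.18 to 0.22. APOC3 became a DEP for diet with slide as a block (-0.15, P = 0.00689). With 48 arrays, counts of DEP over all tested probes and over the pathway lists stayed within 1.5 times of the values given. The pairs of genes correlated at a P-BH of 5% were 16, and 9 with slide removed, 9 with the mean of all probes and 7 with array brightness removed; the cause was not tested. Among the single genes, 26 values changed sign, all of effects that were not called. For line these were, on the first scan day, APOA2 (0.017) and APOA4 (-0.41), and on the second day APOC3 (-0.064), APOE (-0.021) and APOM (-0.043). APOB turned to 0.0075 with quantile normalization, 0.0081 with normexp, 0.0030 with the deposited values and 0.017 with the mean of its probes. APOC3 turned to -0.00074 with quantile normalization, -0.0054 without background subtraction, -0.0022 with the deposited values, -0.0018 with array brightness and -0.0044 with the mean of its probes. For diet, APOA1 turned to 0.00074 with quantile normalization, APOA4 to -0.067 with array brightness and -0.15 on the second day, APOA2 to -0.023 and APOB to 0.0098 on the first day, and LIPC to -0.035 with array brightness and -0.042 on the second day. LCAT turned for diet to 0.024 with normexp, 0.0089 without background subtraction, 0.0047 with the deposited values, 0.078 on the first day and 0.0056 with the mean of its probes. Among the other named genes, APOF, MIA3 and PPARA lost their call for line with the mean of all probes (0.11, 0.07 and -0.13), and PPARA also with the deposited values. The diet effects of APOC2, ABCA1, BMP1, NR1H4 and PPARA lost their call under 1 to 4 of the alternatives with 48 arrays, and no effect of another named gene that had these alternatives changed sign.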
